A study of Homo sapiens with 6 samples.

Results

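The sites described here are the HuR-bound RNA intervals that lie inside 26 to 27.9 Mb of chromosome 6 (hg19), the stretch of band 6p22 named for its cluster of replication-dependent histone genes. An interval of either strand was taken where it lay wholly inside this window, whatever its score. The 3 replicate lists held 258, 541 and 616 such sites for replicates 1, 2 and 3, out of 186157, 405048 and 550681 sites in all. The list made from the 3 replicates combined held 784 of 658853, and its version limited by the authors at p 0.05 held 454 of 373845. No site crossed an edge of the window in any of the 5 lists. The comparison region, called the flank, was 20 to 26 Mb of the same chromosome, with 294, 772 and 1060 sites in the replicates, 1326 in the combined list and 681 in the p-filtered list.

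The cells were HEK293, an established human embryonic kidney line, without any treatment named in the labels. DO-RIP-seq recovers RNA fragments with an antibody from lysate that has been digested with micrococcal nuclease. The labels list 3 immunoprecipitations with the HuR antibody 3A2 and 3 with normal mouse serum, and the serum controls were not analysed here, so no background measured in them stands beside these values. Lysate was pooled after digestion and then divided, so each SD covers the spread between the immunoprecipitations and what follows them, not between separate cultures. Each interval carries the authors' LOD score. Its scale is unknown here, so scores were ranked inside their own list, and a percentile of 90 means that the site scored above 90% of the sites of that list. Read depth is unknown, and the lists differ in length, so the number of sites per list is no measure of binding. With 3 replicates a two-sided sign-flip test cannot give p below 0.25, so differences are given by replicate with their mean and SD and no p-value.

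HuR, the product of ELAVL1, is an RNA-binding protein known for binding U-rich and AU-rich stretches, often in introns and 3' untranslated regions, and for stabilising many of the mRNAs it binds. Replication-dependent histone genes encode the H1 linker histone and the core histones H2A, H2B, H3 and H4, and their mRNAs are made mainly in S phase. These mRNAs come from genes without introns and end in a conserved stem-loop, bound by the stem-loop binding protein SLBP, in place of a poly(A) tail. The 6p22 cluster is the largest group of such genes in the human genome, and it also holds runs of other genes, among them butyrophilins and zinc finger genes.

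The stem-loop is the element that sets these mRNAs apart, so 4 examples are shown, each from a different core histone class. They were read from GENCODE 29 transcripts (GRCh38) on the transcript strand, 5' to 3', with T in place of U and the stem and loop in capitals.

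HIST1H4B: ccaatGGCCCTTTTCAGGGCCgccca

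HIST1H2BC: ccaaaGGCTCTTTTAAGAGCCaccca

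HIST1H2AC: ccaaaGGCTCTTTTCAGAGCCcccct

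HIST1H3G: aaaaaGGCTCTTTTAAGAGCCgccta

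The word searched was a stem of 6 bases beginning GG, a loop of 4 bases beginning TT and the reverse complement of the stem. It was present in 18 of 55 protein-coding histone genes of the cluster (32.7%), in 1 of the 20 other protein-coding genes among them (5%) and in 119 of 19677 protein-coding genes in all (0.605%). The annotation limits that count, because the longest transcript of 30 of the 55 histone genes holds coding sequence alone and stops before any stem-loop. Of the 25 genes whose longest transcript reaches further, 18 held it in at least 1 of their transcripts. The same limit bears on length and on U-rich words, so histone transcripts are given in these 2 classes. The 30 coding sequences had a median coding length of 393 bases and 16.7% U, with UUUUU in 6.67% and AUUUA, the core of AU-rich elements, in 10%. The 25 that reach further had a median of 1034 bases and 25.6% U, with UUUUU in 64% and AUUUA in 68%. For the 20 other genes of the cluster the values were 3104.5 bases, 26.8% U, 95% and 90%, and for all protein-coding genes 2934 bases, 24.7%, 83.2% and 76.8%. The fuller histone transcripts were thus shorter than those of other genes and near them in U content. A short transcript has fewer places for a word, and the part of length in these shares was not tested. Some annotated histone transcripts run on past the stem-loop, as in HIST1H2AC, where 1114 bases follow it, and HIST1H3G, where 1518 do. Among the 18 stem-loop transcripts, 12 had over 100 bases after the loop, UUUUU lay before the loop in 6 and after it in 10, and AUUUA lay before it in 6 and after it in 6. These are letters of reference transcripts, and no HuR site was placed on them.

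No annotation of hg19 was used, so the sites were not assigned to genes and the name of the window was not checked by gene. GENCODE 29 gives the order of the genes, which alternates between histone and other runs. After HIST1H2AA and HIST1H2BA come 5 other genes, from SLC17A4 to TRIM38. Then come 9 histone genes from HIST1H1A to HIST1H1C, 8 from HIST1H4C to HIST1H4D and 15 from HIST1H3D to HIST1H4H. The butyrophilin gene BTN3A2 opens a run of 9 other genes that ends with the zinc finger gene ZNF322. The 5 histone genes from HIST1H2BJ to HIST1H2AH, 4 others from PRSS16 to ZNF184 and 16 histone genes from HIST1H2BL to HIST1H2BO follow. The places of these genes against the edges of the window were not checked, so some of them may lie in the flank. A HuR site in the window may thus belong to a histone transcript, to 1 of the other genes or to neither, and these cannot be told apart from the lists.

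HuR sites were denser in the histone window than in the flank in every replicate. In replicates 1, 2 and 3 the window held 136, 285 and 324 sites per Mb, on average 248 ± 99.4 (SD, n = 3), and the flank held 49, 129 and 177, a mean of 118 ± 64.5. The 2 regions overlap in level across replicates because the lists differ in length, but the window lay above the flank within each list. The ratio was 2.77, 2.21 and 1.84, a mean of 2.27 ± 0.471, with 1.87 in the combined list and 2.11 in the p-filtered list. In bases, 12530, 33745 and 34845 nt of the window were covered, and the ratio of covered bases per Mb was 2.76, 2.28 and 1.96, a mean of 2.33 ± 0.406.

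The flank was close to the average of the list in replicates 2 and 3 and below it in replicate 1. Part of its difference from the window lay in stretches with no site. Its density was 0.814, 0.983 and 0.992 times that of the whole list, taken per Mb of chromosome length up to the last site. The window was 2.26, 2.17 and 1.82 times as dense as the whole list (2.08 ± 0.231, SD, n = 3) and 1.77, 1.69 and 1.49 times as dense as the rest of chromosome 6 (1.65 ± 0.140). No 100-kb bin of the window was empty in any list, out of 19, whereas 32, 29 and 24 of the 60 flank bins held no site in replicates 1, 2 and 3 and 19 held none in the combined list. With bins counted only where they held a site, the ratio of window to flank fell to 1.29, 1.14 and 1.10, a mean of 1.18 ± 0.101. The number of genes and the abundance of their RNA were not corrected for, and their part in these ratios was not tested.

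**Figure D1:**
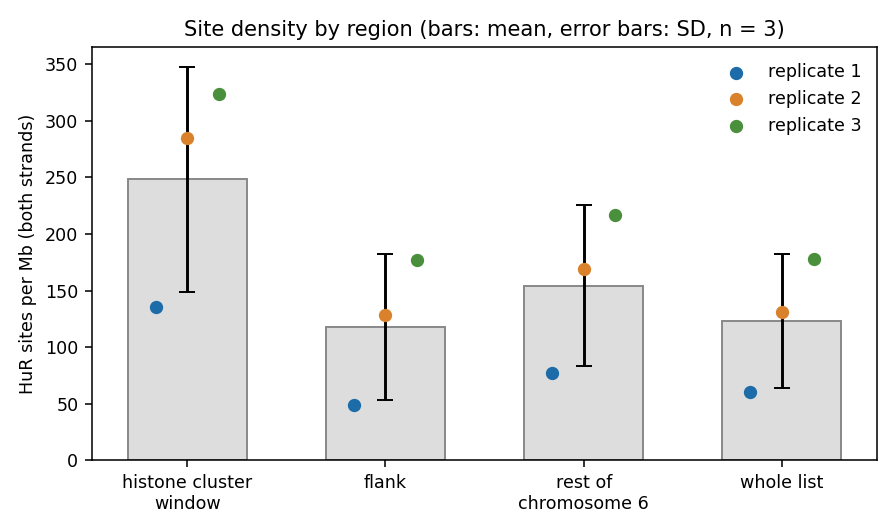
HuR sites per Mb, both strands counted, in the 6p22 histone window, the flank, the rest of chromosome 6 and the whole list. Points are the 3 replicate lists, bars their mean and error bars the SD (n = 3); within each replicate the histone window is the highest of the 4 regions, at 136, 285 and 324 sites per Mb.

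Sites were spread along the whole window but not evenly. The median 100-kb bin held 12, 28 and 32 sites in replicates 1, 2 and 3 and 40 in the combined list, where bins ranged from 9 to 79 sites. In the flank the median bin held 0, 1 and 2 sites and 2 in the combined list, although the fullest flank bin held 162. The 3 fullest bins of the window took 31.0%, 29.0% and 27.9% of its sites, a mean of 29.3% ± 1.56 (SD, n = 3).

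The fullest bin, chr6:26600001-26700000, held 79 combined sites, of which 71 were on the minus strand. The bin beside it, chr6:26500001-26600000, held 68 with the opposite strand pattern, 61 of them plus. The second fullest, chr6:26100001-26200000, held 69 on both strands, 46 plus and 23 minus. At the low end chr6:27200001-27300000 held 9 sites and chr6:27500001-27600000 held 11. Counts per bin followed each other between replicates, with Pearson's r of 0.819 for replicates 1 and 2, 0.838 for 1 and 3 and 0.968 for 2 and 3 across the 19 bins, and Spearman's rho of 0.881, 0.924 and 0.955. The bins share their genes and the pooled lysate, so these coefficients describe the lists only.

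Both strands were used about equally in the window, unlike in the flank. The plus strand carried 51.2%, 46.6% and 45.3% of the window's sites (47.7% ± 3.09, SD, n = 3) and 74.5%, 77.3% and 76.9% of the flank's (76.2% ± 1.53). The difference was -23.3, -30.8 and -31.6 percentage points, a mean of -28.6 ± 4.55, and it was negative in 3 of 3 replicates. Against the rest of chromosome 6 the mean difference was only -1.24 points, so the balance between strands sets the window apart from the flank and not from the chromosome.

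Strand use differed between bins of the window, and bins mostly on 1 strand were less common than in the flank. Of the 18 bins with at least 10 combined sites, 5 (27.8%) had 90% or more on 1 strand, against 18 of 23 such bins in the flank (78.3%). All 40 combined sites of chr6:26800001-26900000 and all 41 of chr6:27000001-27100000 were on the minus strand, while chr6:26200001-26300000 held 22 on each. In GENCODE 29, 26 of 55 histone genes are on the plus strand and 29 on the minus. Of 54 pairs of successive histone genes, counted also across runs of other genes, 33 are on opposite strands. Whether the strands of the sites follow those of the genes was not tested.

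**Figure D2:**
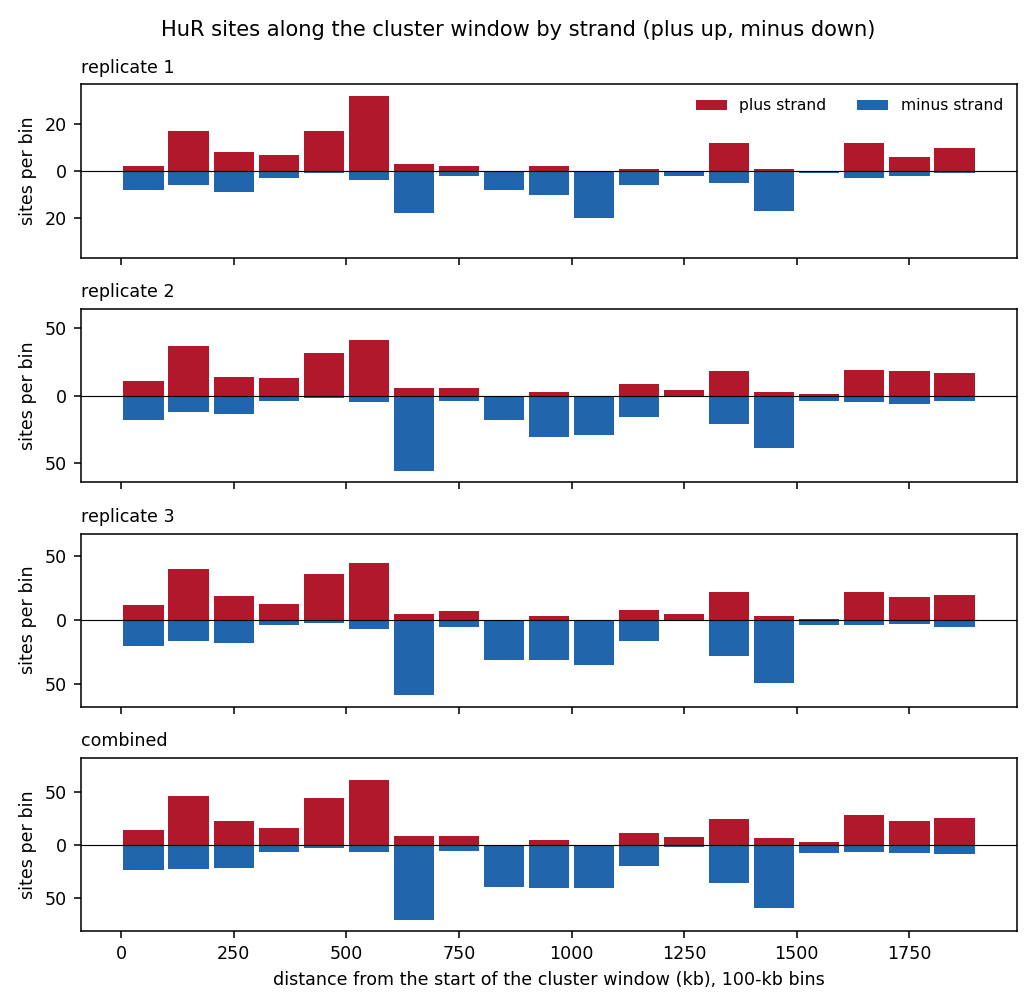
HuR sites per 100-kb bin against the distance in kb from the start of the histone window, plus strand upwards and minus strand downwards, in the 3 replicate lists and the combined list (vertical scales differ between panels). All 19 bins hold sites in each list, and the fullest bin of the combined list, with 79 sites, follows a bin of 68 sites on mostly the other strand.

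At close range a site's nearest neighbour was more often on the other strand than in the flank. It was on the same strand for 85.9%, 88.9% and 90.7% of the window's sites (88.5% ± 2.44, SD, n = 3), for 92.5%, 95.7% and 94.2% in the flank (94.1% ± 1.60) and for 95.9%, 97.0% and 96.2% on chromosome 6 as a whole. In the first 3 bins, set apart after their strand counts had been seen, the share was 78.0%, 78.3% and 79.6%, against 87.7%, 91.5% and 93.5% in the other 16. Those 3 bins held 503 combined sites per Mb, 82 of 151 on the plus strand, and the other 16 held 396 per Mb. Neighbours on opposite strands almost never shared a base. In the window 0 of the sites of each replicate, and 4 of the 784 combined sites (0.510%), overlapped a site of the other strand, compared with 2, 11 and 13 sites in the flank and 27 combined (2.04%). On chromosome 6 as a whole the shares were 0.136%, 0.436% and 0.477% in the replicates and 0.846% combined, so the flank lay further from the chromosome than the window did. Same-strand neighbours in the window lay a median of 1345, 595 and 505 nt apart in replicates 1, 2 and 3, and 1247.5, 552.5 and 575 nt apart in the flank.

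Sites in the histone window did not rank clearly higher or lower in score than those in the flank. The median LOD percentile was 44.9, 47.0 and 48.1 in the window (46.7 ± 1.63, SD, n = 3) and 46.8, 42.5 and 45.1 in the flank (44.8 ± 2.14). The difference was -1.91, 4.45 and 2.98 percentile points, so replicate 1 went against the other two, and the mean of 1.84 ± 3.33 was smaller than its SD. Without replicate 2 it was 0.536, and without replicate 1 it was 3.71. Against the rest of chromosome 6 the mean difference turned to -3.56 ± 1.77, so by that comparison the window ranked lower. In the combined list the medians were 51.2 and 46.4. Sites were slightly wider in the window, at a median of 45, 55 and 50 nt where the flank had 40, 50 and 45 nt, a difference of 5 nt, 1 step of the 5-nt grid of the lists, in each replicate, and the difference from the rest of chromosome 6 was 0 nt.

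The window had a larger share of low-scoring sites than the flank, with many of them in 2 bins. The lowest decile, the 10% of a list with the lowest scores, took 47, 74 and 89 of the window's sites, which is 18.2%, 13.7% and 14.4%, where each whole list has 10.0% by construction. The flank had 11.2%, 12.0% and 10.0%. The window exceeded it by 6.99, 1.63 and 4.45 percentage points, a mean of 4.36 ± 2.68 (SD, n = 3), and was higher in 3 of 3 replicates. Against the rest of chromosome 6 the mean difference was 5.86 ± 2.60 points. The highest decile, again 10.0% of each list, took 21, 49 and 57 of the window's sites, or 8.14%, 9.06% and 9.25%, and 8.16%, 5.44% and 6.23% of the flank's. That difference was -0.0237, 3.62 and 3.03 points, a mean of 2.21 ± 1.95 (3.32 without replicate 1), and did not have 1 sign. Against the rest of chromosome 6 it was -1.31 ± 0.473, so the window's share was lower there.

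Low-scoring sites were narrow but not confined to 1 replicate. Their median width was 30, 37.5 and 30 nt, against 55, 80 and 75 nt for the window's highest decile. Of the 47 lowest-decile sites of replicate 1, 32 (68.1%) overlapped a site in both other replicates, as did 25 of 74 (33.8%) of replicate 2 and 34 of 89 (38.2%) of replicate 3, against 57.6%, 23.7% and 20.8% in the flank. Among the highest decile the shares were 100%, 95.9% and 71.9%. Low scores gathered in the bins chr6:26500001-26600000 and chr6:27300001-27400000, which together held 16 of 47, 24 of 74 and 31 of 89 of the lowest-decile sites. Without these bins, set apart after their counts were seen, the share was 15.1%, 11.0% and 11.3%, above the 10.0% of each whole list. Replicate 2 was then below the flank, and the mean difference was 1.37 ± 2.49 points. The bins were picked for their low scores and left out of the window alone, so the choice itself lowers the difference. With all bins, the difference was smaller at LOD above 2, at 1.84 ± 1.95 points. In the p-filtered list the shares were 10.4% in the window and 10.6% in the flank. The first of these bins had 10, 13 and 18 of the lowest-decile sites and a combined median percentile of 27.2, even though 26 of its 68 combined sites were found in all 3 replicates. The bin chr6:27000001-27100000 lay at the other end, with a combined median percentile of 73.0, 17 of 41 sites found in all 3 replicates and 78.0% kept by the p filter.

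**Figure D3:**
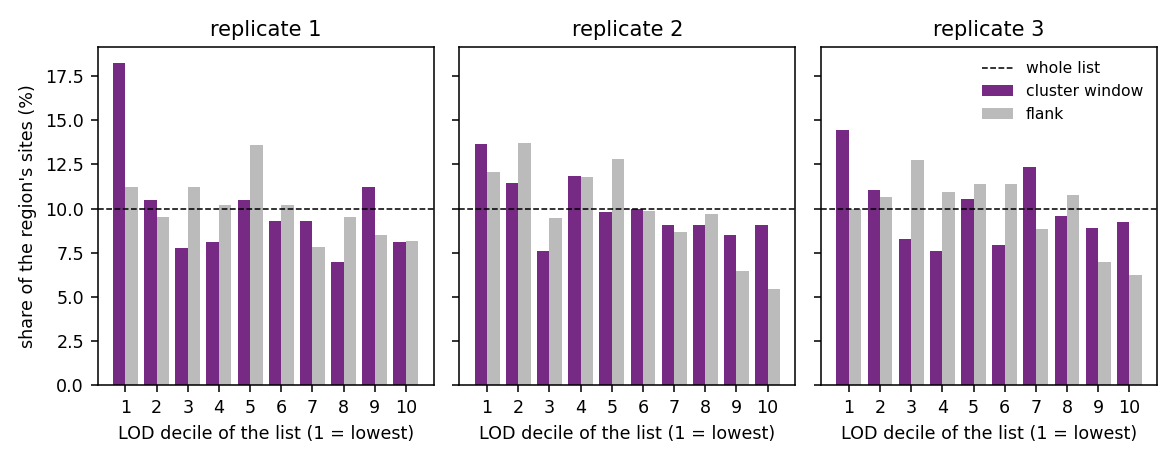
Share of sites (%) in each decile of the list's LOD scores, from the lowest (1) to the highest (10), for the histone window and the flank in the 3 replicates. The dashed line is the 10.0% of the whole list; the lowest decile holds 18.2%, 13.7% and 14.4% of the window's sites, above the flank in each replicate.

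Sites of the window recurred more often than flank sites in replicates 2 and 3, the longer lists, and in replicate 3 more often than the whole list too. A site counted as recurrent where it overlapped a same-strand site by at least 1 nt in both other replicates. This held for 225 of 258 sites of replicate 1 (87.2%, Wilson 95% interval 82.6 to 90.7%), 214 of 541 of replicate 2 (39.6%, 35.5 to 43.7%) and 220 of 616 of replicate 3 (35.7%, 32.0 to 39.6%), intervals that cover counting error only. In the whole lists the shares were 89.1%, 37.8% and 28.4%, so replicates 1 and 2 were near the background and replicate 3 lay above it. The flank had 86.7%, 31.0% and 23.3%. The difference from the flank was 0.475, 8.60 and 12.4 percentage points, a mean of 7.16 ± 6.10 (SD, n = 3), which was 2.42 without replicate 3. Against the rest of chromosome 6 it was 1.89 ± 4.08, and among sites of 30 to 40 nt 2.46. Sites found in no other replicate numbered 24, 82 and 152 in the window, or 9.30%, 15.2% and 24.7%, against 4.42%, 16.3% and 38.9% in the flank and 4.37%, 12.8% and 35.0% in the whole lists. In replicates 1 and 2 that share was above the whole list and in replicate 3 below it. Where 2 replicates shared a site of the window, their scores were correlated with r of 0.622 (n = 231 sites), 0.612 (n = 228) and 0.787 (n = 452) for replicates 1 and 2, 1 and 3, and 2 and 3, and the flank gave 0.635, 0.627 and 0.692. These sites share the pooled lysate and, often, a transcript.

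In the combined list a larger share of the window's sites than of the flank's was backed by all 3 replicates. They numbered 211 of 784 (26.9%), with 22.9% in the whole list, and 236 of 1326 in the flank (17.8%). A further 234 sites (29.8%) overlapped 2 replicate lists, 239 (30.5%) overlapped 1 and 100 (12.8%) overlapped none, where the whole list had 30.0%, 36.2% and 11.0%. Score and width went with that support: the median combined LOD was 10.8, 7.39, 5.29 and 3.05 and the median width 80, 60, 40 and 22.5 nt for 3, 2, 1 and 0 lists. The highest-scoring site that overlapped none, chr6:26277741-26277765 (minus strand), scored 6.52 there. The combined list is built from the same replicates, so this order is no independent check of either.

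**Figure D4:**
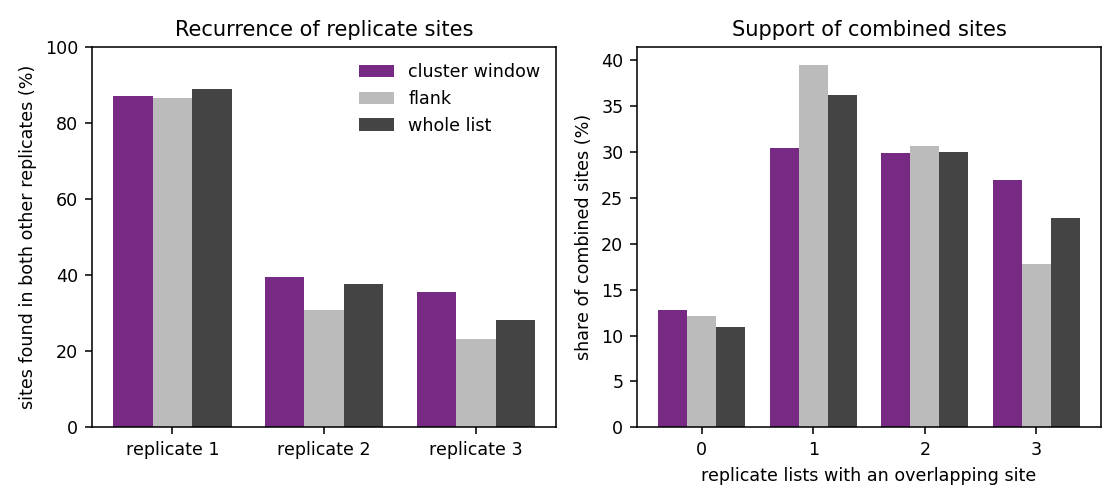
Left, share (%) of each replicate's sites that overlap a same-strand site in both other replicates; right, share (%) of combined sites by the number of replicate lists they overlap, for the histone window, the flank and the whole list. The window lies above the flank in replicates 2 and 3 (39.6% against 31.0%, and 35.7% against 23.3%) and in combined sites found in all 3 replicates (26.9% against 17.8%).

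The authors' p filter kept a slightly larger share of the window than of the flank. A p-filtered interval lay on 427 of the 784 combined sites of the window (54.5%, Wilson 95% interval 51.0 to 57.9%), close to the 52.3% of the whole list, and on 645 of 1326 in the flank (48.6%, 46.0 to 51.3%). The difference was 5.82 percentage points, with a 95% Newcombe interval of 1.41 to 10.2 that covers counting error only and treats neighbouring sites as independent. The difference from the rest of chromosome 6 was 0.525 points. In bases 46.3% of the window's covered sequence was kept and 42.9% of the flank's. Support in the replicates went with being kept: among sites with all 3 replicates behind them 94.3% were kept, with 2 replicates 65.4%, with 1 replicate 28.0%, and with none 8 of 100. The flank had 97.9%, 66.3%, 24.7% and 9.94% and the whole list 98.1%, 66.6%, 24.2% and 10.4%, so at equal support the window's share was lower in 3 of 4 classes and its larger total went with its larger share of sites found in all 3.

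Counted by base, 43830 nt of the window were covered in at least 1 replicate. Of these 10595 nt (24.2%) were covered in all 3, 16100 nt (36.7%) in 2 and 17135 nt (39.1%) in 1, whereas 18.1% of the flank's 68430 nt were covered in all 3. The bases covered in all 3 were gathered in few places. Of 380 windows of 10 kb, counted by strand, 88 held such a base, and the top 5 of them held 25.6% of these bases and the top 10 held 42.0%. First came the plus strand of chr6:26170001-26180000 with 595 nt, and its sites numbered 8, 17 and 18 in replicates 1, 2 and 3. The plus strand of chr6:26520001-26530000 followed with 565 nt and that of chr6:26540001-26550000 with 555 nt. On the minus strand chr6:27090001-27100000 had 530 nt and chr6:26630001-26640000 had 470 nt. The short list of replicate 1 bounds these values: with replicates 2 and 3 alone the bases covered in both were 1325, 905, 1195, 1110 and 910 nt in the order given.

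Of the 10 highest combined sites found in all 3 replicates, 6 were on the minus strand, and they were 30 to 230 nt wide, against a median of 50 nt for the window's combined sites. The highest was chr6:26636536-26636615 on the minus strand, 80 nt wide with a combined LOD of 20.1. It ranked at percentiles 97.9, 98.2 and 98.1 in replicates 1, 2 and 3 (98.1 ± 0.155, SD, n = 3), the steadiest of the 10. It lay in the fullest bin and in 1 of the 5 windows just described.

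Second was chr6:27339441-27339590, also minus, with a combined LOD of 19.6. It ranked at 85.4, 99.6 and 98.7, so replicate 1 placed it lower than the others. The third, chr6:27679786-27679850 on the plus strand, ranked at 98.8, 95.0 and 98.8. Close to it in score were chr6:26541846-26541935 on the plus strand, at 82.9, 98.1 and 99.8, and chr6:26175301-26175530 on the plus strand, at 95.7, 97.8 and 97.9. The last of these was the widest of the 10, at 230 nt, and lay in the 10-kb window with the most bases in all 3 replicates.

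The replicates differed most at chr6:27077641-27077670 on the minus strand, only 30 nt wide. It ranked at 99.3 in replicate 1, 38.1 in replicate 2 and 81.5 in replicate 3 (73.0 ± 31.5, SD, n = 3), and its combined LOD of 17.7 was the eighth highest. The other 4 sites, chr6:27431446-27431520, chr6:26199471-26199525 and chr6:27063051-27063120 on the minus strand and chr6:27811041-27811125 on the plus strand, had mean percentiles between 91.8 and 94.9. Replicate 1 ranked 3 of these 4 below the other replicates and chr6:26199471-26199525 above them. All 10 were kept by the p filter, and the choice by combined score, which rests on the same replicates, fixes that these ranks are high.

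**Figure D5:**
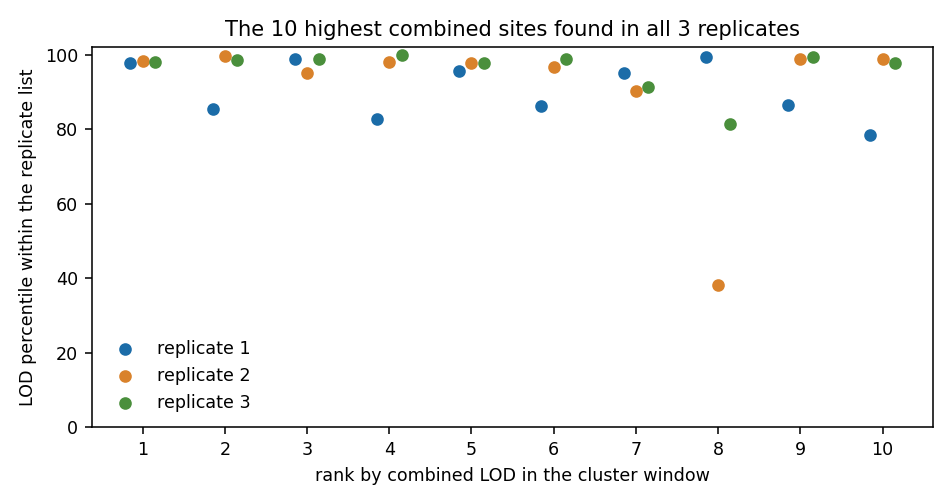
LOD percentile in each replicate list (points) for the 10 highest combined sites of the histone window found in all 3 replicates, ordered by combined LOD. Most points lie above a percentile of 90; the eighth site spans 38.1 to 99.3, and replicate 1 is the lowest point for most of the others.

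The widest site of the window was not among them. It was chr6:27370961-27371535 on the plus strand, 575 nt wide in the combined list, where its percentile was 67.3. The overlapping sites of replicates 1, 2 and 3 were 130, 290 and 145 nt wide, with percentiles of 32.5, 65.9 and 78.9. The widest combined site thus did not rank among the highest in the combined list. It lay in the bin chr6:27300001-27400000, which held 60 combined sites and 6, 11 and 13 of the lowest-decile sites of replicates 1, 2 and 3.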

How the data were processed

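The submitters' processing notes name TopHat2 2.0.8 and cutadapt 1.0 and the build hg19 (GRCh37). The deposited lists hold a LOD score for each interval. How the authors called intervals, and the score's log base, are not given here. The 3 HuR replicates have 1 list each, grouped and numbered by their titles, and 2 lists combine them, 1 of these limited by the authors at p 0.05. Ends lie on a 5-nt grid. Depth is unknown.

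Sites were counted, ranked and matched on the same strand (overlap of at least 1 nt) with Python 3.11.15, pandas 2.3.3, bedtools 2.31.1 and numpy 2.4.6, intervals came from scipy 1.17.1, and figures were drawn with matplotlib 3.10.9. The code was tested on simulated data. No score was compared in size between lists. Coordinates are 1-based on hg19.

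Sites named are the 10 highest combined scores found in all 3 replicates, the 5 strand-specific 10-kb windows with most bases in all 3, and the 3 fullest 100-kb bins; a few others were chosen after their values were seen. The window, its comparisons and lists were chosen with earlier results of these data known. Alternatives changed the LOD minimum, the overlap, site width, bin size, the comparison region and the replicates used. A planned comparison of histone with other genes was not run, because no hg19 annotation was used here. GENCODE 29 gave gene names, order and transcript sequences only.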

Additional observations from a re-analysis of the deposited data

How the results depend on the processing

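Of 80 alternatives to 11 results, 64 moved the value by no more than the spread between replicates (or, for the p filter, its interval). The other 16 moved it further, and none reversed a sign that all 3 replicates shared. The 64 include leaving out a replicate, which mostly could not come out otherwise. A mean of 2 of 3 values always stays within their SD and keeps a sign that all 3 share. Only recurrence, then counted against 1 other replicate, was free to move further. The comparison region gave more of these moves than any other alternative. Against the rest of chromosome 6 in place of the flank, the density ratio was 1.65, the covered-base ratio 1.59, the median percentile difference -3.56, the width difference 0 nt, the plus-strand difference -1.24 points, the highest-decile difference -1.31, the p-filter difference 0.525 and the nearest-neighbour difference -8.03. With only filled 100-kb bins, an alternative chosen after seeing the data, density and covered-base ratios were 1.18 and 1.21. The share of the 3 fullest bins was 27.2% at LOD above 1, 27.6% above 2, and the 6 fullest of 38 bins of 50 kb took 39.3%. The percentile difference among sites of 30 to 40 nt was -2.04, and the nearest-neighbour difference with equal numbers of sites -8.52. Counting sites that touch the window's edge could change nothing and is left out of these numbers. The lowest-decile difference stayed within the spread against the rest of chromosome 6, at 5.86. Without the 2 bins richest in low scores, also chosen after seeing the data, it was 1.37. These bins were left out of the window alone, so the choice itself lowers the value. The spread is wide for some results. Leaving out a replicate took the percentile difference to between 0.536 and 3.71 and the recurrence difference to between 2.42 and 8.20. The highest-decile difference rose to as much as 3.32. Without replicate 1 the bases covered in all replicates rose at the 5 named windows, from 595 to 1325 nt at the first. Without replicate 2 or replicate 3 they changed less. Histone genes were not compared with other genes, since no hg19 annotation was used. Window and flank were compared within each replicate. Between HuR and serum samples no paired analysis was possible because the controls have no values in the 5 lists. Unknown depth limits every count of sites.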
